A study of Mus musculus with 230 samples.

Results

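Cycling and non-cycling cells were compared among single cells from the dorsal subventricular zone of mice at postnatal day 2 (P2). A cell was taken as cycling when at least 5 of 20 genes of the G2 and M phases reached 1 RPKM, RPKM being reads per kilobase of gene and per 1 M reads (M, mega). A cell in which 0 or 1 of these rule genes reached that level was taken as non-cycling and is called a reference cell. The series holds 230 cells, of which 109 are from P2. The column of 1 P2 cell holds 0 for every gene and was dropped. Of the remaining P2 cells, 18 were cycling and 72 were reference cells, 90 in all. The 18 P2 cells with 2 to 4 rule genes, called middle cells, entered no difference and are described apart.

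All cells came from C57BL/6 mice of the genotype Neurog2CreERT x Ai14+/+ that had received tamoxifen 12 h before harvest, and carried the red reporter tdTom after sorting. In these mice the regulatory DNA of Neurog2, a gene for a proneural factor, drives a tamoxifen-inducible Cre recombinase, so cells enter the sort only through activity of that driver or descent from a cell that had it. The labels call the cells glutamatergic progenitors, and the other 121 cells of the series are tdTom+ cells of the pallium at embryonic day 15 (E15). Each cell was captured on a microfluidic chip, seen under a microscope and sequenced as its own library of unstranded complementary DNA, with single reads of 75 bases and a planned 7 M reads per cell. The labels name no animal, litter or donor, so P2 counts as 1 sample and the cells are not replicates. For that reason no test was made: differences are given with the values of the cells behind them, and separately for plate 1 and plate 2 as read from the cell titles.

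A dividing cell copies its DNA in S phase, checks and prepares in G2, and separates its chromosomes in M phase. The genes for mitosis are switched on together in G2 and shut off after division, largely through promoter elements bound by the NF-Y factor and by the MuvB complex with its partners B-Myb and FoxM1, whereas many S phase genes are driven by E2F factors. In the developing pallium, radial glia marked by Pax6 and Sox2 divide to give intermediate progenitors marked by Eomes (also called Tbr2). These in turn divide to give glutamatergic neurons, and dividing cells of both kinds are still found in the dorsal subventricular zone after birth.

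The promoters of the 3 genes that mark proliferating cells most often are shown because most of the rule genes' promoters hold the same elements. Each window runs from 250 bases before to 50 bases after the gene's start, from RefSeq on GRCm38.p6, and is printed 5′ to 3′ on the gene's strand. Capitals mark CCAAT boxes (CCAAT or its complement ATTGG) and matches to the cell cycle genes homology region, or CHR (TTTGAA or TTTAAA on either strand, TTTAAA being its own complement). Top2a, which encodes the topoisomerase that untangles chromosomes, has its window at chr11:99024140-99024439 on the minus strand. Mki67, which encodes the coat protein of mitotic chromosomes, has its window at chr7:135716330-135716629 on the minus strand. Cdk1, which encodes the kinase that drives entry into mitosis, has its window at chr10:69352863-69353162 on the minus strand.
Top2a: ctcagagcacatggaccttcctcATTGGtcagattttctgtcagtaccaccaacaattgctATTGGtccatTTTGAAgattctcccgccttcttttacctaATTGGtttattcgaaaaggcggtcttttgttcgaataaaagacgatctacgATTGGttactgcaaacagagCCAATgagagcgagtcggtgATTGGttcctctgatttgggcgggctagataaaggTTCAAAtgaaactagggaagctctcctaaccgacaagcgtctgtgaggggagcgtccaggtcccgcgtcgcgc
Mki67: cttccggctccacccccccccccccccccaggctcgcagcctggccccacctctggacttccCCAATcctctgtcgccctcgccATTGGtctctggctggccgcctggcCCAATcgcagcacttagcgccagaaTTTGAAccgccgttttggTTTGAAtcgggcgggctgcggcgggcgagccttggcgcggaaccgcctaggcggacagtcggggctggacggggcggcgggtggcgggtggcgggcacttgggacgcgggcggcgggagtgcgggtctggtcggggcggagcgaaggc
Cdk1: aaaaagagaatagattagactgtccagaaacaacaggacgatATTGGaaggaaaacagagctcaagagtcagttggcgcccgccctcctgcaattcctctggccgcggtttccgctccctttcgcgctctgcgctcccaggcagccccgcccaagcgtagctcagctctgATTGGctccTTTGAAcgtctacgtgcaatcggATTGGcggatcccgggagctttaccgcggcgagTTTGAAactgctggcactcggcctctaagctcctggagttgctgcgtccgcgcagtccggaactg

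The Top2a window holds 6 CCAAT boxes and 2 CHR matches, and the Mki67 and Cdk1 windows hold 3 CCAAT boxes and 2 CHR matches each. RefSeq windows were matched for 17 of the 20 rule genes, all except Aurkb, Ccna2 and Tpx2. At least 1 CCAAT box was present in 15 of the 17 windows (88.2%), against 37.4% of all 32851 windows in the table. At least 1 CHR match was also present in 15 of the 17 (88.2%), against 27.6% of all windows. Windows with at least 2 CCAAT boxes and a CHR match made up 10 of the 17 (58.8%), against 3.13% of all windows. E2F sites, searched as TTTCCCGC, TTTCGCGC, TTTGCCGC or TTTGGCGC on either strand, were in 1 of the 17 windows, that of Cdk1, and in 2.27% of all windows. In the 47 windows of the DNA replication genes described below, 15 (31.9%) held an E2F site and 12 (25.5%) a CHR match. No matches of different motifs shared bases in the rule genes' windows, and they did in 71 of the 32851. The letters alone describe these windows and show no binding.

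Cycling cells had more reads on genes than reference cells, with a median of 3.70 M (0.856 to 5.57 M) against 2.67 M (0.114 to 5.40 M). They also had more detected genes, a gene being detected in a cell at 1 RPKM or more: the median was 2426 (1003 to 3339) against 1996 (at most 2651). Mitochondrially encoded genes held a median of 8.74% of the RPKM total in cycling cells and 7.35% in reference cells. The number of rule genes and the number of detected genes in a cell had a Spearman rho of 0.29 over all P2 cells, as a description. The part of depth and cell size in the differences below was not tested beyond 12 pairs of cycling and reference cells of the same plate, matched within 10% on detected genes, whose list medians are given together further on. No 2 P2 columns held identical values.

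The cycling cells made up 16.7% of the P2 cells (exact binomial 95% interval 10.2 to 25.1%, which covers counting error only). Plate 1 held 8 cycling cells of 55 and plate 2 held 10 of 53. Within plate 2 they were not spread evenly over the numbers in the cell titles: 7 of the 10 cells with numbers from 85 to 95 were cycling, against 3 of the other 43. In plate 1, 1 of the 11 cells with those numbers was cycling. What the title numbers stand for is not given in the sources used here, so position on the chip, capture and cell state cannot be told apart for these 7 cells, and the main results are also given without the plate 2 cells with those numbers.

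**Figure D1:**
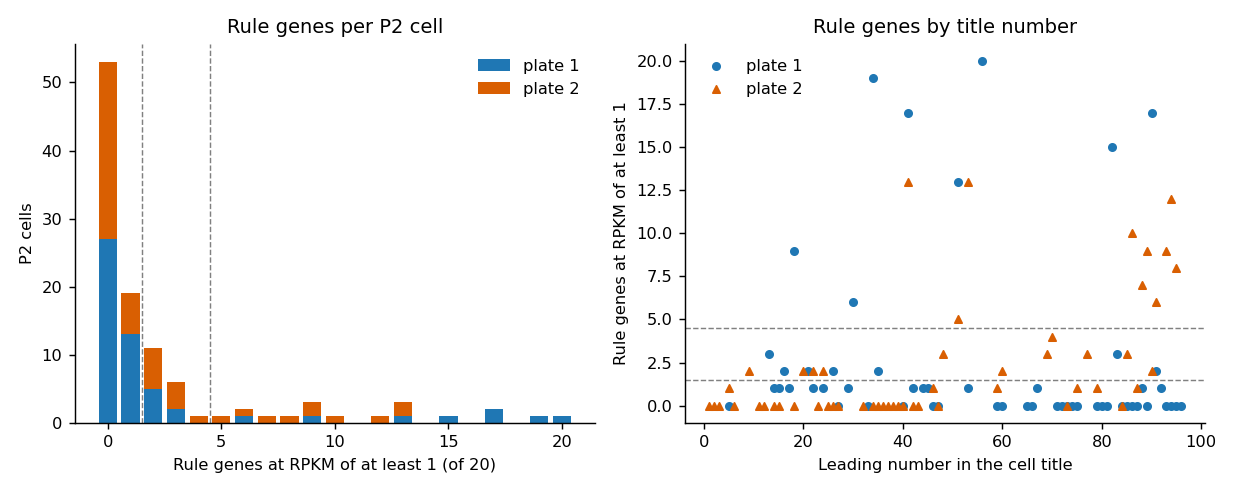
Number of the 20 rule genes at 1 RPKM or more in each P2 cell, as a histogram (left; bars stacked by plate) and against the number in the cell title (right; 1 point per cell). Dashed lines separate reference (0 or 1), middle (2 to 4) and cycling cells (5 or more); the counts thin out between 2 and 5 genes, and the plate 2 cycling cells sit mostly at numbers 85 to 95.

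By rule genes the P2 cells formed a large group near 0 and a long, thin tail. No rule gene was detected in 53 cells, 1 in 19 cells, 2 in 11 cells and 3 in 6 cells, and the 18 cycling cells ranged from 5 to 20 rule genes with a median of 11. Just inside the limit, with 5 rule genes, was cell 51 of plate 2, with a Top2a level of 54.4 RPKM, and just outside, with 4, was cell 70 of plate 2, where Top2a, Mki67 and Cdk1 were all at 0. The plates differed in how full the program was. Plate 1 cycling cells held a median of 16 rule genes and a summed level of 71.0 to 1921 RPKM (median 1270), and plate 2 cycling cells a median of 9 rule genes and a sum of 89.3 to 585 RPKM (median 325). Of the rule genes detected in plate 2 cycling cells, 32.6% were under 5 RPKM, against 8.62% in plate 1. The summed level was 4.22 to 251 RPKM in middle cells and 0 to 138 RPKM in reference cells, so the sums of cycling and middle cells overlapped. At E15 the same rule gave 18 cycling cells of 121 with a median of 19.5 rule genes, and all 20 rule genes were detected in 9 of them, against 1 of the 18 at P2.

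The rule genes themselves chose the cells, so their levels are a description only. Top2a was detected in all 18 cycling cells, from 1.12 to 229 RPKM with a median of 25.3, and in 7 of 72 reference cells, the highest at 138 RPKM. Cdk1 was detected in 13 cycling cells and ranged from 0 to 152 RPKM (median 5.16). Mki67 was detected in 10 cycling cells and ranged from 0 to 115.9 RPKM (median 2.45). Neither Cdk1 nor Mki67 was detected in any of the 72 reference cells, which allows a share of up to 4.17% of such cells. All 3 markers together were detected in 7 cycling cells and at least 2 of them in 16, so the cells carried the markers of proliferation, with Top2a the only one of the 3 present throughout.

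The other rule genes were patchier. The mitotic motor Kif11 was detected in 13 cycling cells, the kinetochore protein Cenpf in 13, and the cyclin gene Ccnb1 and the ubiquitin-conjugating enzyme gene Ube2c, which marks mitotic proteins for destruction, in 12 each. The centromere histone gene Cenpa was detected in 8, the kinase genes Plk1 and Bub1b in 7 each, and Aurka, encoding the spindle pole kinase, in 5 cycling cells and 6 middle cells. The mean level of Ube2c was 76.7 RPKM in cycling cells and that of Kif11 75.3 RPKM, the highest of the 20. Between plates, the difference in mean log2(RPKM + 1) between cycling and reference cells was close for Bub1b (1.76 in plate 1 and 1.64 in plate 2) and the cyclin gene Ccna2 (2.28 and 2.13), and was 4.85 and 3.81 for Top2a. It was far apart for others: 5.86 and 1.66 for Ube2c, 5.18 and 1.33 for the checkpoint kinase gene Bub1, and 3.28 and 0.22 for Aurka.

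Across genes outside the rule, the difference was the mean of log2(RPKM + 1) over cycling cells minus that over reference cells. A gene was measured if at least 5% of the P2 cells had it at 1 RPKM or more, and counted as higher or lower when the difference was at least 1, or -1 or below, over all cells and in each plate. Of 7989 measured genes, 231 (2.89%) were higher and 40 (0.501%) were lower in cycling cells. Over all measured genes the median difference was 0.08, with 90% of genes between -0.65 and 1.19, and 53.7% of genes had the same sign in both plates. A total of 54 of the 231 higher genes belonged to the cell cycle lists used here. By list, the share of measured genes that were higher ran from 7.69% (repair at replication forks) to 64.0% (chromosome structure). The share over all measured genes was 2.89%. The split depends on the scale: when RPKM values were averaged before taking log2, which lets a few high cells set the value, 400 genes were higher and 832 lower. Of the 231 and 40 genes, 139 and 25 counted on that scale too. Without the plate 2 cells numbered 85 to 95, only plate 1 holds enough cells for a separate check, and 209 of the 231 and 35 of the 40 counted. Plate 1 is unchanged there and gives 8 of the 11 cycling cells. All of the 231 and 40 genes had already passed its check, so most of this overlap was fixed in advance.

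The largest difference among named genes was that of Pbk. Pbk (chr14:65805837-65817822 in GENCODE M21, GRCm38, plus strand), which encodes a mitotic kinase, had a difference of 5.37 (6.65 in plate 1 and 4.38 in plate 2); it was detected in 14 of 18 cycling cells, at 0 to 1089 RPKM with a median of 258, and in 5 of 72 reference cells, the highest at 301 RPKM. The groups overlapped, since 4 cycling cells were below 1 RPKM. Spc25, a subunit of the kinetochore complex that holds microtubules, followed with 4.74 (15 of 18 cycling and 4 of 72 reference cells). Hmgb2 (chr8:57511907-57515999, plus strand), which encodes a DNA-bending chromatin protein of dividing cells, had a difference of 4.30 and was the steadiest of the group: all 18 cycling cells were between 7.61 and 128 RPKM, with a median of 49.6. It was detected in 22 of 72 reference cells, with 1 at 240 RPKM.

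Rrm2 and Rrm1, the subunits of ribonucleotide reductase, which makes the building blocks of DNA, had differences of 4.18 and 3.93. Rrm1 was detected in 15 of 18 cycling cells (0 to 339 RPKM, median 51.2) and in 14 of 72 reference cells (median 0). Its difference was nearly equal in the plates, at 3.81 and 3.97. Cdca3, which marks the mitosis inhibitor Wee1 for destruction, had a difference of 4.05, and Cks2, a partner of Cdk1, 3.86. The next were the cohesion enzyme gene Esco2 (3.25), the Aurora B partner gene Cdca8 (3.21), the histone variant gene H2afv (3.20), the condensin gene Smc4 (3.16) and the D-type cyclin gene Ccnd2 (3.13).

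**Figure D2:**
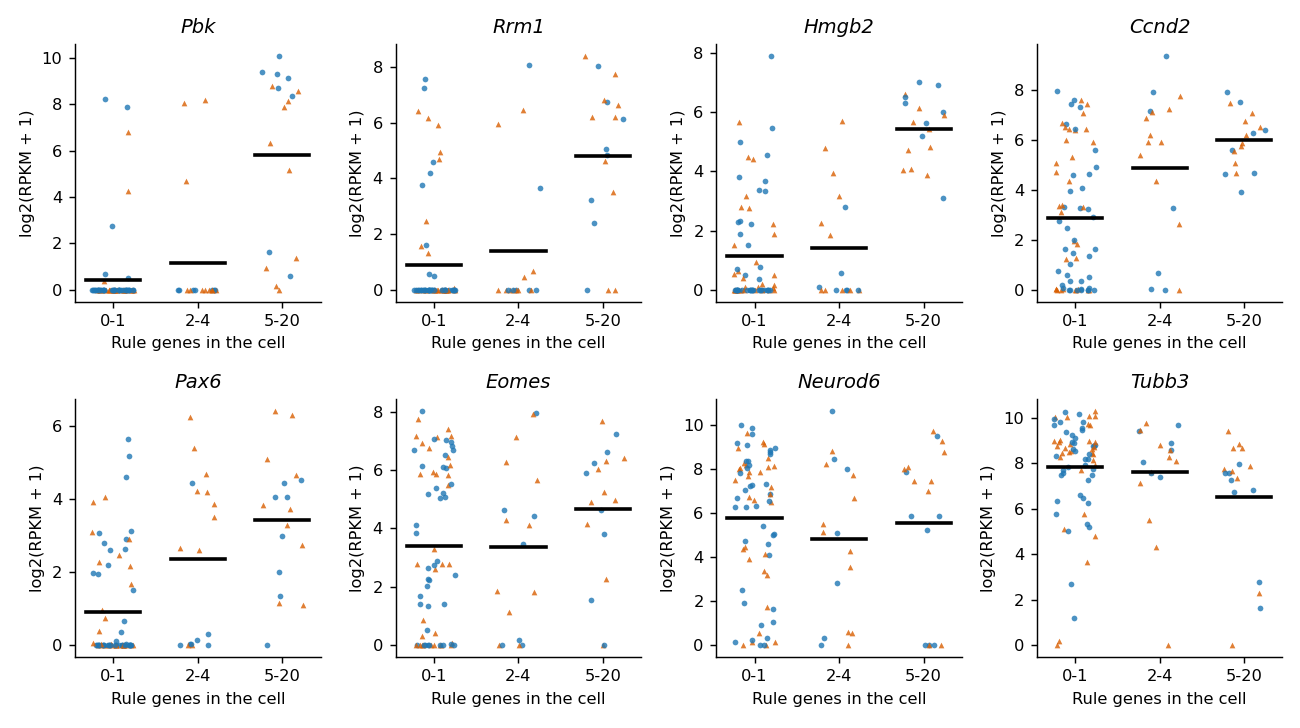
Level of 8 genes as log2(RPKM + 1) in each P2 cell, grouped by number of rule genes (0 or 1, 72 cells; 2 to 4, 18 cells; 5 to 20, 18 cells). Points are cells (circles plate 1, triangles plate 2) and bars are means; Hmgb2 and Ccnd2 are present in every cycling cell, Pax6 in 17 of 18, Eomes and Neurod6 spread over the full range in all groups, and Tubb3 is lower in cycling cells on average with wide overlap.

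The median differences of the mitotic lists outside the rule were above that of all measured genes, and larger in plate 1 than in plate 2. Of the 8 measured of 12 mitotic kinesins, the motors that move chromosomes and spindle fibres, 2 counted as higher (Kif22 and Kif23) and none as lower, with a median difference of 1.81 (3.08 in plate 1 and 0.91 in plate 2). Kif23, needed for the cut between daughter cells, had 2.92 and was detected in 10 of 18 cycling and 2 of 72 reference cells. Of the 28 measured of 32 kinetochore and centromere genes, 13 were higher and none lower, with a median of 1.85 (2.92 and 1.02). They include the other subunits of the microtubule-binding complex, Nuf2 (1.96) and Spc24 (2.75), and the centromere genes Cenpp (2.69), Cenpq (2.05) and Cenpi (1.90). Their spread was wide: Zwint, a kinetochore gene also expressed in neurons, had 0.01 and was detected in 10 of 18 cycling and 34 of 72 reference cells.

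Of the 24 measured of 30 spindle, centrosome and cytokinesis genes, 6 were higher, with a median of 1.60 (2.82 and 0.71), led by Tacc3 (3.08), which stabilizes spindle fibres, and Ckap2 (2.96). The tubulin gene Tuba1b had 2.93 and was present in 17 of 18 cycling and 39 of 72 reference cells. Of the 18 measured of 22 checkpoint and anaphase genes, 4 were higher, with a median of 0.80. Mad2l1, a brake on anaphase, had 2.44. Cdc20, whose product that brake holds back, had 4.28 in plate 1 and 0.11 in plate 2. Of the 13 measured of 19 genes for entry into mitosis, 3 were higher, with a median of 1.01; Foxm1, the transcription factor of the G2 program, was detected in 8 of 18 cycling cells and 1 of 72 reference cells (difference 1.65). Since these genes were measured partly because cycling cells express them, the medians with every listed gene kept are given too: 1.27 for kinesins, 1.81 for kinetochores, 1.20 for the spindle, 0.59 for the checkpoint and 0.85 for entry into mitosis.

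Chromosome structure genes held the highest share of higher genes, 16 of 25 measured of 28 listed, with a median of 1.81 (2.17 in plate 1 and 1.26 in plate 2). Among them were the condensin genes Smc2 (2.89) and Ncaph (1.62), which compact chromosomes, and the cohesin genes Rad21 (2.05) and Smc3 (1.41), which hold sister chromatids together. The histone variant gene H2afx (2.91) was detected in 11 of 18 cycling and 3 of 72 reference cells. Others were common in both groups and differed in level: H2afz (2.01) was detected in 17 and 67 cells, and Hmgb1 (1.81) in 18 and 68. Tmpo, which encodes a protein of the inner nuclear membrane, had 3.01.

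**Figure D3:**
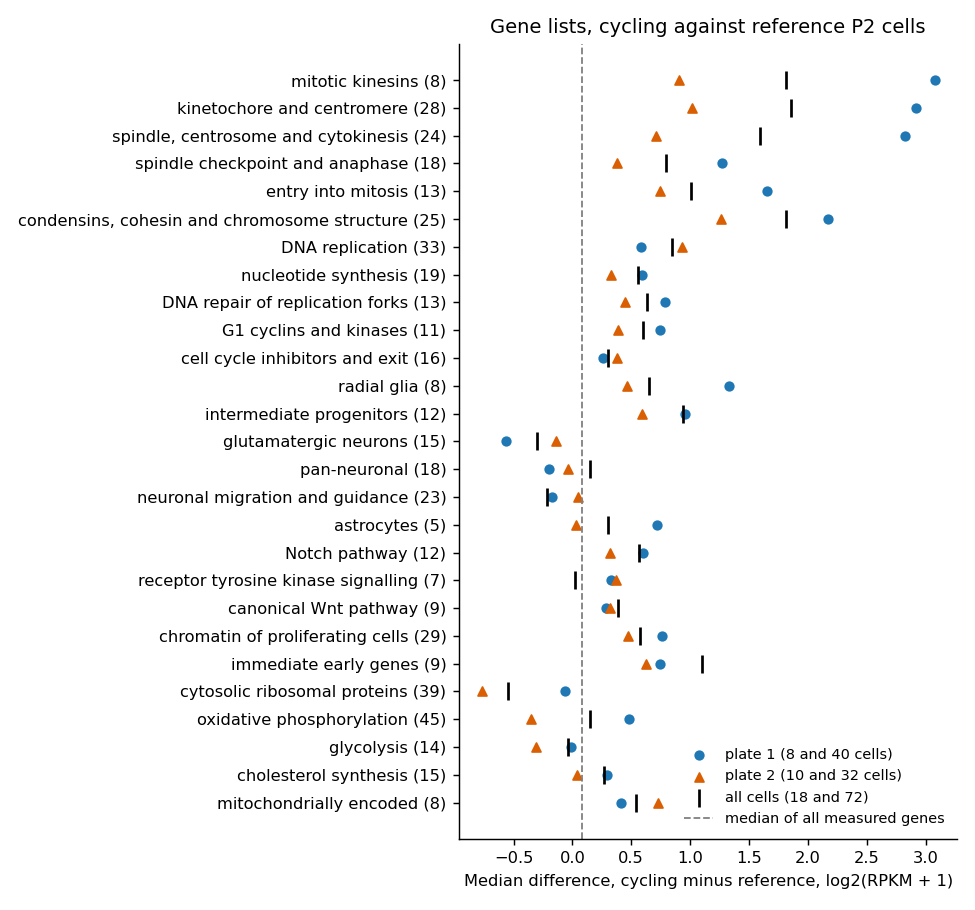
Median difference over the measured genes of each list (number in brackets) between cycling and reference P2 cells, in log2(RPKM + 1), for all cells (bars), plate 1 (circles) and plate 2 (triangles). The dashed line is the median of all measured genes, 0.08; kinesin, kinetochore, spindle and chromosome structure lists sit highest, DNA replication is higher in plate 2 than in plate 1, and ribosomal protein genes sit lowest.

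Among the S phase lists, DNA replication had the opposite order of plates. Of 49 DNA replication genes 33 were measured, of which 3 counted as higher (Tipin, Orc6 and Cdc7) and none as lower, with a median of 0.85 (0.58 in plate 1 and 0.93 in plate 2; 0.58 with all 49 kept). Tipin, which steadies replication forks, had 2.69, and Cdc7, the kinase that fires replication origins, 1.30. Pcna, the clamp that holds DNA polymerase on its template, had 0.66 in plate 1 and 2.90 in plate 2. It was detected in 2 of 8 cycling cells of plate 1 and 9 of 10 of plate 2, against 6 of 40 and 8 of 32 reference cells. The replicative helicase gene Mcm2 was detected in 4 of 18 cycling and 3 of 72 reference cells (0.38), and Mcm6 in 8 and 12 (0.58).

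Of 19 measured nucleotide synthesis genes 4 were higher (Rrm1, Rrm2, Dut and Paics), with a median of 0.56 (0.59 in plate 1 and 0.33 in plate 2; 0.29 with all 24 kept). That median was 0.31 without cycling cell 86 of plate 2 and 0.37 without cycling cell 34 of plate 1. Of 13 measured genes for repair at replication forks 1 was higher, Uhrf1 (1.90), with a median of 0.63 (0.79 and 0.45). This median was 0.36 without the filter for measured genes. The repair enzyme gene Usp1 was at -0.05 in plate 1 and 3.07 in plate 2. Without the plate 2 cells numbered 85 to 95, the medians were 0.99 for DNA replication, 2.78 for kinetochores, 2.44 for the spindle and 2.39 for kinesins.

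At least 5 DNA replication genes were detected in 15 of 18 cycling cells (83.3%, exact 95% interval 58.6 to 96.4%) and in 22 of 72 reference cells (30.6%, 20.2 to 42.5%). The count was 5 of 18 in middle cells (27.8%, 9.70 to 53.5%). The cell with the most replication genes of all P2 cells, 27, was a reference cell, cell 15 of plate 1, with 1 rule gene. A middle cell, cell 26 of plate 1, had 22. The rule reads G2 and M genes and leaves such cells outside the cycling group. Over the P2 cells the numbers of rule genes and of replication genes had a Spearman rho of 0.41, and replication genes and all detected genes 0.54, both counts sharing the depth of the cell. With the 22 reference cells that had at least 5 replication genes left out, 208 of the 231 higher and 21 of the 40 lower genes counted.

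**Figure D4:**
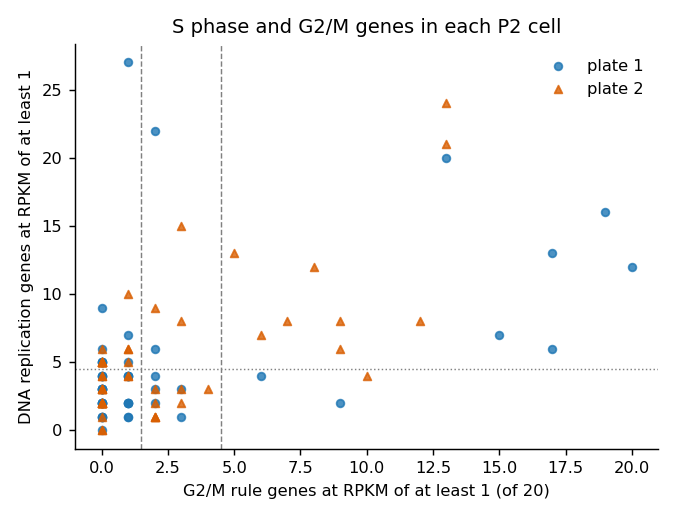
DNA replication genes detected against G2/M rule genes detected in each P2 cell (circles plate 1, triangles plate 2; points can overlap). Dashed lines separate reference, middle and cycling cells and the dotted line lies below 5 replication genes; 2 cells at the upper left, with 27 and 22 replication genes, have only 1 and 2 rule genes.

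Among the genes that set entry into the cycle, Ccnd2 stood out. Ccnd2 (chr6:127125162-127152193, minus strand, with exons that overlap 9330179D12Rik and Gm43126) encodes the D-type cyclin of embryonic cortical progenitors and was present in all 18 cycling cells, at 14.3 to 242 RPKM with a median of 65.6. It was detected in 46 of 72 reference cells, at 0 to 250 RPKM with a median of 3.82, and in 14 of 18 middle cells, with a median of 59.8 RPKM and the highest value of all, 671 RPKM. Thus the ranges overlapped almost fully, and what differed was the lack of reference-like low values among cycling cells. Its partner gene Cdk4 had 1.68 (17 of 18 and 60 of 72 cells), and Cdk6 0.73. Among the cells matched on detected genes the differences were 1.79 for Ccnd2 and 0.29 for Cdk4. The related cyclin gene Ccnd1 was detected in 2 of 18 cycling and 4 of 72 reference cells. Of 11 measured genes of the G1 list 2 were higher, with a median of 0.60, or 0.37 without cycling cell 34 of plate 1.

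None of 16 measured genes for cell cycle inhibitors and exit counted as higher or lower, and their median was 0.30. The inhibitor gene Cdkn1b (p27) was detected in 17 of 18 cycling and 69 of 72 reference cells, at medians of 48.9 and 33.3 RPKM, with a difference of -0.59 in plate 1 and 0.97 in plate 2. Cdkn1a and Cdkn1c, encoding the related inhibitors p21 and p57, were detected in 0 and 1 cycling cells and in 2 and 4 reference cells. The antiproliferative gene Btg2 had 1.13, with 1.83 in plate 1 and 0.47 in plate 2.

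Among the progenitor genes Pax6 had the largest difference. Pax6 (chr2:105668900-105697364, plus strand), the transcription factor of cortical radial glia and early intermediate progenitors, was detected in 17 of 18 cycling cells (94.4%, exact 95% interval 72.7 to 99.9%), at 0 to 83.5 RPKM with a median of 12.7. It was detected in 21 of 72 reference cells (29.2%, 19.1 to 41.1%), with a median of 0 and a highest value of 48.9 RPKM, and in 10 of 18 middle cells. The difference was 2.51, with 1.89 in plate 1 and 3.05 in plate 2. Pax6 gave 2.37 among the 12 matched pairs of cells and 1.98 without the plate 2 cells numbered 85 to 95, where all 7 cycling cells had it, at up to 83.5 RPKM. Sox2, another radial glia factor, was detected in 10 of 18 cycling and 5 of 72 reference cells (1.56; 2.58 in plate 1 and 0.67 in plate 2).

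Other radial glia genes were sparse. Fabp7, which encodes the brain lipid-binding protein, had 1.92 and was detected in 11 of 18 cycling and 27 of 72 reference cells, but Fabp7 was lower by -0.44 in the cycling cells of the 12 matched pairs. Of 20 radial glia genes, 8 were measured, 2 counted as higher (Pax6 and Fabp7) and none as lower, with a median of 0.65 (0.37 with all 20 kept). The glial stem cell markers Hes5, Vim and Nes were each detected in at most 2 cycling cells, and Hes1, Hopx and Aldoc in none of the 90 cells.

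Of the intermediate progenitor genes, Eomes was common in both groups. Eomes (chr9:118478212-118486132, plus strand, with exons that overlap the predicted gene Gm33460) was detected in 16 of 18 cycling cells, at 0 to 205 RPKM with a median of 33.9, and in 49 of 72 reference cells, at 0 to 260 RPKM with a median of 5.90. The shares were 88.9% (65.3 to 98.6%) and 68.1% (56.0 to 78.6%), whose intervals overlap. The Eomes difference was 1.26 over all cells, 0.57 without the plate 2 cells numbered 85 to 95 and 0.34 when RPKM values were averaged before taking log2. The zinc-finger gene Insm1, which promotes the formation of intermediate progenitors, was higher by 1.77 (15 of 18 and 26 of 72 cells). Hes6, which opposes Notch signalling, was higher by 2.31 (12 of 18 and 23 of 72). Neurog2, whose regulatory sequences drive the Cre, was detected in 10 of 18 cycling and 15 of 72 reference cells (0.94), and was at -0.30 among the matched pairs. Of 12 measured of 20 listed intermediate progenitor genes, 3 were higher (Eomes, Insm1 and Hes6) and none lower, with a median of 0.94. This median was 0.59 without the plate 2 cells numbered 85 to 95 and 0.75 without the filter for measured genes.

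Taking genes in combination, Pax6 and Eomes were detected together in 15 of 18 cycling cells (83.3%, exact 95% interval 58.6 to 96.4%) and in 19 of 72 reference cells (26.4%, 16.7 to 38.1%). Middle cells lay between them, with 8 of 18. Within cells that had Eomes, 16 cycling and 49 reference, the Pax6 difference was 2.21. Eomes was found with Neurod6, a factor of young glutamatergic neurons, in 11 of 18 cycling cells (61.1%) and in 42 of 72 reference cells (58.3%). Cells with neither gene numbered 0 of 18 cycling cells, which allows a share of up to 16.7%, and 4 of 72 reference cells.

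Neuronal genes were not absent from cycling cells. Neurod6 was detected in 13 of 18 cycling cells, at 0 to 845 RPKM with a median of 151, and in 61 of 72 reference cells, at 0 to 1040 RPKM with a median of 110. Its sign differed between plates, at -1.45 in plate 1 and 0.80 in plate 2, where 6 of the 7 cycling cells numbered 85 to 95 had it. Dcx, a microtubule protein of migrating neurons, was detected in 17 of 18 and 67 of 72 cells, with a difference of 0.15. Tubb3, the neuronal tubulin gene, counted as lower: cycling cells lay between 0 and 692 RPKM with a median of 190, and reference cells between 0 and 1265 RPKM with a median of 362, a difference of -1.36. Both Tubb3 and Dcx were detected in 16 of 18 cycling cells and 66 of 72 reference cells. Whether RNA of a second cell in the same capture site contributed was not tested.

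None of 15 measured glutamatergic neuron genes counted as higher or lower, with a median of -0.30 (-0.57 in plate 1 and -0.14 in plate 2). The axon guidance receptor gene Unc5d had -1.16, and Tbr1, the deep-layer factor, was detected in 8 of 18 and 42 of 72 cells (-0.66). Cux1 and Bcl11a were each at 0.71. Of 18 measured pan-neuronal genes 1 was lower, Tubb3, and their median of 0.15 was -0.20 in plate 1 and -0.04 in plate 2. The median of 23 measured migration and guidance genes was -0.21 over all cells and 0.05 in plate 2.

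Of the 40 lower genes, 0.501% of measured genes, 3 belonged to the lists used here (Tubb3, Smarca2 and Aldoa). They were 1 of 18 measured pan-neuronal, 1 of 29 chromatin and 1 of 14 glycolysis genes. Kdm5b, which encodes a histone demethylase, had the lowest value among genes named by rule, -2.06: it was detected in 10 of 18 cycling and 60 of 72 reference cells, at medians of 1.76 and 13.9 RPKM. Map1b, a microtubule-associated protein of growing axons, had -1.94 (medians of 1.11 and 28.6 RPKM), and Gng3, a neuronal G protein subunit, -1.82 (7.83 and 72.6 RPKM). The glycolytic enzyme gene Aldoa, at -1.79, was detected in 2 of 18 cycling and 29 of 72 reference cells. The imprinting factor gene Zfp57 had -1.79, the ribosomal protein gene Rpl13a -1.61 and the transport adaptor gene Hook3, detected in 1 of 18 and 34 of 72 cells, -1.49. Tubgcp2, a component of the microtubule-nucleating ring, was listed at 0 in all 18 cycling cells and detected in 18 of 72 reference cells. At E15, 5 of the 40 lower genes were at -1 or below, against 1.23% of all genes measured here, and 31 were below 0.

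Other higher genes lay outside the cell cycle lists. Ccar1, a regulator of transcription and apoptosis, had 3.04 and was detected in 17 of 18 cycling and 39 of 72 reference cells. Gas2l3, which links actin and microtubules during cytokinesis, had 2.93, and the gene given under the date-altered name sept-11 had 2.65. Shcbp1 had 2.59, the histone chaperone gene Anp32e 2.54, the nuclear import gene Kpna2 2.53, the DNA repair gene Neil3 2.52, the purine salvage gene Hprt 2.52 and the lamin B receptor gene Lbr 2.33. Of 29 measured chromatin genes of proliferating cells 6 were higher, with a median of 0.58: Nasp (2.05), Uhrf1, Hells (1.75), the Polycomb enzyme gene Ezh2 (1.68), Rbbp7 (1.44) and Atad2 (1.21). Smarca2, which encodes an ATPase of the chromatin remodeller whose make-up shifts when neurons are born, was the only lower gene of that list (-1.39; 8 of 18 and 44 of 72 cells).

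Of 12 measured Notch pathway genes 1 was higher, Hes6, with a median of 0.57, or 0.11 without the filter for measured genes. Of 7 measured receptor tyrosine kinase genes 1 was higher, Spry2, a feedback inhibitor of growth factor signalling (2.28; 17 of 18 and 53 of 72 cells), with a median of 0.03, which was -0.13, -0.09 and -0.05 without cycling cells 93, 95 and 91 of plate 2. None of 9 measured canonical Wnt genes counted, with a median of 0.39, or 0.006 without the filter for measured genes. The median of 0.39 was 0.18 without cycling cell 93 of plate 2 and 0.19 without cell 51 of plate 1. It was 0.23 without cell 51 of plate 2 and 0.25 without cell 34 of plate 1. The largest was Ctnnb1, encoding beta-catenin, at 3.38 in plate 1 and 0.94 in plate 2. None of 9 immediate early genes counted either, although Egr1 (0.36 and 3.46) and Fos (0.90 and 2.76) were above 2 over all cells, with the larger value in plate 2. The 39 listed cytosolic ribosomal protein genes had a median of -0.55, with -0.06 in plate 1 and -0.77 in plate 2, and none counted. Rpl13a, which counted as lower, is not among the 39. Oxidative phosphorylation genes were at 0.48 in plate 1 and -0.35 in plate 2, with Cox7c the only one of 45 to count as higher (1.02).

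Markers of other cell types were mostly low, apart from Gad2 and some astrocyte genes. No oligodendrocyte, microglia, endothelial or ependymal gene was measured. The summed level of 12 microglia genes was at most 0.02 RPKM in a cycling cell and 4.71 RPKM in a reference cell, and that of 12 endothelial and mural genes at most 0.07 and 0.41 RPKM. The 15 oligodendrocyte genes had a median sum of 0 in both groups, with highest values of 86.8 and 165 RPKM, and Olig2 was detected in 0 of 18 and 1 of 72 cells. Of 18 astrocyte genes 5 were measured, none counted, and the sum of the 18 was 0 to 127 RPKM in cycling cells (median 5.30) and 0 to 318 RPKM in reference cells (median 0.17), with Sparcl1 at means of 19.8 and 14.2 RPKM; their part in the results was not tested. Gad2, an enzyme gene of inhibitory neurons, was detected in 5 of 18 cycling and 32 of 72 reference cells, at means of 11.2 and 13.5 RPKM, while Gad1 and Dlx2 were detected in none of these 90. Egfr, a receptor of transit-amplifying progenitors, was detected in 3 of 18 cycling cells and in 0 of 72 reference cells.

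In the 12 pairs matched on detected genes, several list medians differed from those over all cells. The cycling cells of these pairs were 3 from plate 1 and 9 from plate 2, against 8 and 10 over all cells. The effects of matching and of this change in plates cannot be told apart. The kinesin median was 0.85 in place of 1.81, that of kinetochores 1.24 in place of 1.85, that of the spindle list 0.90 in place of 1.60, and that of the checkpoint list 0.51 in place of 0.80. The median was 0.16 for the G1 list, 0.06 for inhibitors, 0.26 for radial glia and 0.49 for intermediate progenitors. It was -0.16 for glutamatergic neurons, -0.52 for pan-neuronal genes and 0.01 for migration, so the sign turned for the last 2 lists. It was 0.29 for Notch, 0.36 for receptor tyrosine kinases, 0.23 for Wnt, -1.03 for ribosomal proteins and -0.31 for oxidative phosphorylation, where the sign also turned. DNA replication, at 0.73, and chromosome structure, at 1.63, stayed closer to their values over all cells.

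The 10 measured genes whose level was most like the number of rule genes over all P2 cells, by Spearman rho, were 2810417H13Rik (0.67), Cdca8 (0.60), Pbk (0.60), Esco2 (0.59), Foxm1 (0.58), Cdca3 (0.58), Spc25 (0.58), Sgol1 (0.56), Gas2l3 (0.54) and Pax6 (0.54). The first of these encodes a PCNA-associated factor and was detected in 17 of 18 cycling, 3 of 18 middle and 2 of 72 reference cells, with a difference of 4.30 (4.43 and 4.20 in the plates). Pax6 was the only transcription factor of progenitor identity among the 10. The rho of these genes with the number of detected genes ranged from 0.23 for Cdca3 to 0.47 for Spc25, so depth is shared between the points. Pax6 lay near the upper end, at 0.465, and 2810417H13Rik had 0.33.

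The same rule at E15 gave 18 cycling and 84 reference cells, whose values can be set beside those at P2, although age, region and library set cannot be told apart and the difference between ages was not tested. Of the 231 higher genes at P2, 131 (56.7%) had a difference of at least 1 at E15, against 9.55% of all genes measured at P2, and 203 were above 0. The median of the kinesin list was 3.42 at E15 and 1.81 at P2, that of kinetochores 2.52 and 1.85, and that of DNA replication 1.10 and 0.85. Pax6 had 0.59 at E15 and 2.51 at P2, Ccnd2 1.08 and 3.13, and Spry2 0.15 and 2.28. Eomes went the other way, with 2.95 at E15 and 1.26 at P2. Pax6 and Spry2 were low at E15. A pseudocount of 1 understates changes of low genes, and its part in these values was not tested. The E15 means in cycling and reference cells were 3.5 and 1.4 RPKM for Pax6, and 2.2 and 3.9 RPKM for Spry2. At P2 these means were 19.1 and 3.0 RPKM for Pax6, and 153 and 57 RPKM for Spry2. For Spry2 the E15 mean was thus lower in cycling cells, although its log2 difference was 0.15. Tubb3 was at -0.33 at E15 and -1.36 at P2.

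**Figure D5:**
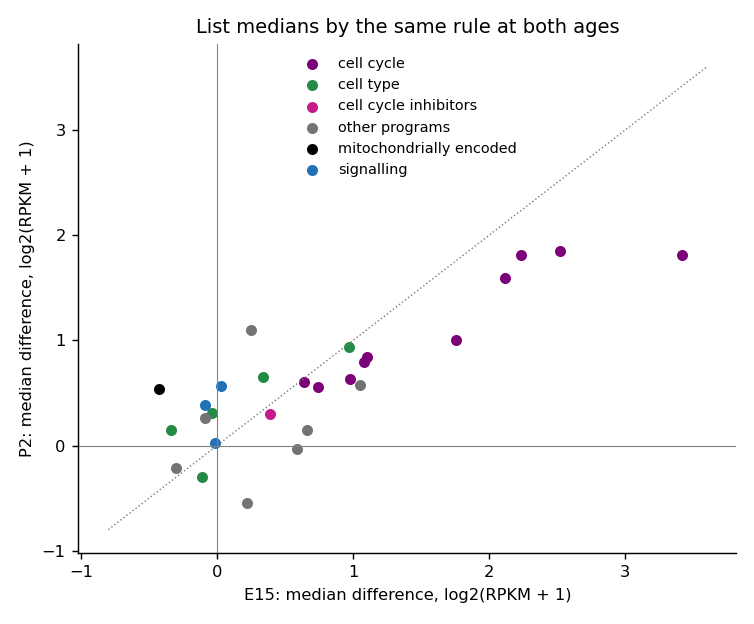
Median difference of each gene list between cycling and reference cells at P2 (vertical axis) against E15 (horizontal axis), both in log2(RPKM + 1); 1 point per list, coloured by kind, and the dotted line marks equal values. The mitotic lists lie to the right of the line, with kinesins at 3.42 and 1.81, and the ribosomal protein list is lowest at P2.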

How the data were processed

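Single-cell RNA was measured in cells sorted at E15 and P2. Per the submitters' processing notes, reads were handled with bcl2fastq 2.15.0.4, cutadapt 1.9.1, STAR and featureCounts on GRCm38.p4; the annotation and the counting options are not given in the sources used here. The authors deposited 1 table per age with RPKM values for 46983 gene names, 1 column per cell; no count table was used. Steps between low values, read with GENCODE M21 exon lengths, gave approximate depths: a median of 5.90 M total reads and 2.79 M on genes per P2 cell, with 79.3% of low values within 0.02 of a whole read, so no count model was run. Intervals and floors (3 cells) cover counting error only.

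Cells were grouped by the G2/M rule and by the plate inferred from the cell titles. Levels are means of log2(RPKM + 1), with a pseudocount of 1, which understates changes of low genes. The members, the 33 gene lists and the choice of genes were made with earlier results of these data known. Named genes were the 20 rule genes, the 12 highest and 12 lowest that counted and were detected in at least 25% of either group, the 12 highest outside the cell cycle lists, up to 4 per list, a set fixed by name, and the 10 most like the rule. Predicted models and sex-linked marker genes were left out of the 12 highest, the 12 lowest and the 12 outside the cell cycle lists. The 10 most like the rule were ranked without that limit and include the clone-named 2810417H13Rik. Other genes were named from the lists after their values were seen. Of 165 named genes, 51 of the 161 with a locus have exons that overlap another gene, which unstranded reads cannot separate, among them Eomes, Ccnd2 and Top2a. Captures were checked by eye per the labels' protocols, and no doublet caller was run. Alternatives changed the pseudocount, scale, filter, rule, reference, plates and cells. The steps were tried on P2 reference cells split at random, with some genes multiplied by known folds, and the outcome is not given here. Scripts ran under Python 3.11.15 with scipy 1.17.1, pandas 2.3.3, matplotlib 3.10.9 and numpy 2.4.6.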

Additional observations from a re-analysis of the deposited data

How the results depend on the processing

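With 1 sample and no test, values show only how far they move. The numbers of higher and lower genes, 231 and 40, were 663 and 144 with a pseudocount of 0.1, 400 and 832 when RPKM was averaged before taking log2, 598 and 149 after rescaling to TPM, and 501 and 561 in 12 and 12 cells matched on detected genes, with 1 plate checked. They were 741 and 418 without plate 1, 1090 and 235 without plate 2, and 1148 and 817 in cells without Neurod6 (5 and 11 cells, no plate check). They were 691 and 126 without the plate 2 cells numbered 85 to 95, chosen after the data were seen. Fewer plates checked lets more genes count. Lower genes numbered 75 in cells with Eomes and 21 with rule genes above 0 RPKM. With cells of few detected genes left out, 17 cycling and 71 reference cells gave 244 higher and 46 lower genes. Leaving out each cycling cell in turn gave 203 to 261 higher and 34 to 53 lower genes.

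The DNA replication list median, 0.85, was 1.53 with a pseudocount of 0.1, 1.43 when averaged before log2, 1.47 as TPM, and 0.58 both without a filter and without plate 2. The radial glia list median, 0.65, was 1.44, 1.36 and 1.33 at a pseudocount of 0.1, as TPM and without plate 2, and 0.39, 0.37 and 0.26 when averaged before log2, without a filter and in matched cells. The intermediate progenitors list median, 0.94, was 1.79 with a pseudocount of 0.1, 0.53 when averaged before log2, 1.73 as TPM, 1.36 with rule genes above 0, 0.49 in matched cells, and 0.59 both without plate 1 and without the plate 2 cells numbered 85 to 95. The glutamatergic neurons list median, -0.30, was -0.69 when averaged before log2 and -0.88 in cells without Neurod6, and nearer 0 in others: -0.13 with rule genes at 5 RPKM or more, -0.14 without plate 1, -0.15 without reference cells that had 5 replication genes and -0.16 in matched cells. All named genes were followed through the alternatives, but turns of sign were labelled only for those that counted. Among these the sign turned only for Fabp7, to -0.44 in matched cells. Genes that did not count could turn too, as Neurog2 did in matched cells. The cause of these changes was not tested. The share of cycling cells stayed within its interval under the 7 settings for which it was worked out. It was not worked out for the limit of 8 rule genes, which left 14 cycling cells, or for cells chosen by Eomes or Neurod6. No paired analysis was possible because the cells carry no replicate number shared between groups and no test was made.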
